A study of Mus musculus with 18 samples.

Results

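The fatty acid binding proteins are small cytoplasmic carriers of long-chain fatty acids and related lipids. The genes described are *Fabp1* to *Fabp7*, with every probe set whose platform annotation gives 1 of these symbols, and they hold 13 of the 45037 probe sets and 7 of the 18193 genes measured. The family was chosen by *Fabp5*, which was selected on its signal in these data as the gene that differed most between the untreated lines. Total RNA was hybridized to 18 Affymetrix mouse expression arrays. Wild-type cells are Hepa-1c1c7, a mouse hepatoma line, and c35 cells are a mutant derivative of it, in which a missense mutation leaves the aryl hydrocarbon receptor (AHR) unable to bind DNA. Each line received for 8 hr either the vehicle DMSO or 1 of 2 AHR ligands, 5 nM TCDD or 5 µM BaP, with 3 biological replicates in each of the 6 groups. For TCDD in wild-type cells the dose is not in the labels and was taken from the methods. Each genotype is 1 cell line, so the AHR mutation and any other difference between the lines cannot be told apart. DMSO cells are called naive.

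Each family member is named for the tissue in which it was found. FABP1 is the liver form, FABP2 the intestinal, FABP3 the heart, FABP4 the adipocyte and macrophage, FABP5 the epidermal, FABP6 the ileal, which carries bile acids, and FABP7 the brain form. The proteins take up fatty acids that enter the cell and pass them to membranes, to oxidation and storage, and to the nucleus. In mouse cells FABP1, FABP4 and FABP5 are known to hand ligands to the peroxisome proliferator-activated receptors PPARα, PPARγ and PPARδ. In adult liver *Fabp1* is the abundant form in hepatocytes.

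Promoters of 5 of the 7 genes, *Fabp1*, *Fabp2*, *Fabp3*, *Fabp6* and *Fabp7*, were matched in RefSeq on GRCm38.p6. The 250 bases before the start of each were searched on both strands for GCGTG, the core to which the AHR binds with its partner ARNT, and for AGGTCA, the half-site of PPARs and other nuclear receptors. GCGTG was in 0 of the 5, where 28.2% of 32851 promoters hold it. AGGTCA was in 2 of the 5, 2 times in *Fabp1* and 1 time in *Fabp7*, where 4607 of the 32851 promoters hold it. A match is a string of letters and not a bound site, and the lack of one says nothing of the AHR. The promoters of *Fabp1*, the liver form, and *Fabp2*, called between the lines with TCDD but not with BaP, are shown to let the reader set them side by side. They lie at chr6:71199629-71199878 and chr3:122894822-122895071, both on the plus strand. Capitals mark AGGTCA, here as its reverse complement.
Fabp1: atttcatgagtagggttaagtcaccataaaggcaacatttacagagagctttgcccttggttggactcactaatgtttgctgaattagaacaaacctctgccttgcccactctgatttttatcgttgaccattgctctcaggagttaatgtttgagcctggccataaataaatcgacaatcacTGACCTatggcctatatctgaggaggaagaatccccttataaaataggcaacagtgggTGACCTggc
Fabp2: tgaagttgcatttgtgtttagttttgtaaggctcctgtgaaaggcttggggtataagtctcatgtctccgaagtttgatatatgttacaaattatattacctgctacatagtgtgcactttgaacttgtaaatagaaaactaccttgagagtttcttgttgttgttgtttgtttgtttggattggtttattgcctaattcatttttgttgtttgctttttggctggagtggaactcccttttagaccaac
*Fabp1* holds the half-site at bases 67 to 62 and at bases 9 to 4 before its start.

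*Fabp5* was strongly expressed in wild-type cells and low in c35 cells, whatever the treatment. On probe set 1416021_a_at the log2 signals of naive wild-type cells were 11.38, 11.99 and 11.86, and those of naive c35 cells were 4.91, 4.50 and 5.14. With TCDD they were 11.95, 11.96 and 11.89 in wild-type cells and 5.07, 5.05 and 4.88 in c35 cells. With BaP they were 11.87, 11.81 and 11.81 in wild-type cells and 5.21, 4.99 and 5.06 in c35 cells. The 9 wild-type arrays thus lay together and the 9 c35 arrays lay together, with no overlap and a gap of more than 6 log2 units between them. Whether fewer cells of a type or less RNA per cell gave the low signal of c35 cells cannot be told apart in bulk RNA.

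The second *Fabp5* probe set, 1416022_at, gave 9.92, 10.65 and 10.61 in naive wild-type cells and 4.24, 4.94 and 4.09 in naive c35 cells. With TCDD its signals were 10.66, 10.68 and 10.83 in wild-type cells and 4.43, 4.77 and 4.94 in c35 cells. With BaP they were 10.62, 10.38 and 10.37 in wild-type cells and 4.67, 4.62 and 4.53 in c35 cells. The 2 probe sets therefore separated the lines in the same way, and on both the c35 signals fell below the array median of 5.62 to 5.69 on all 9 arrays. The values carry no detection calls, so whether the c35 signal lay above background was not tested. The annotation also lists a *Fabp5*-like pseudogene, *Fabp5l2*, and a near-identical copy could add to the signal of these probe sets.

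**Figure D1:**
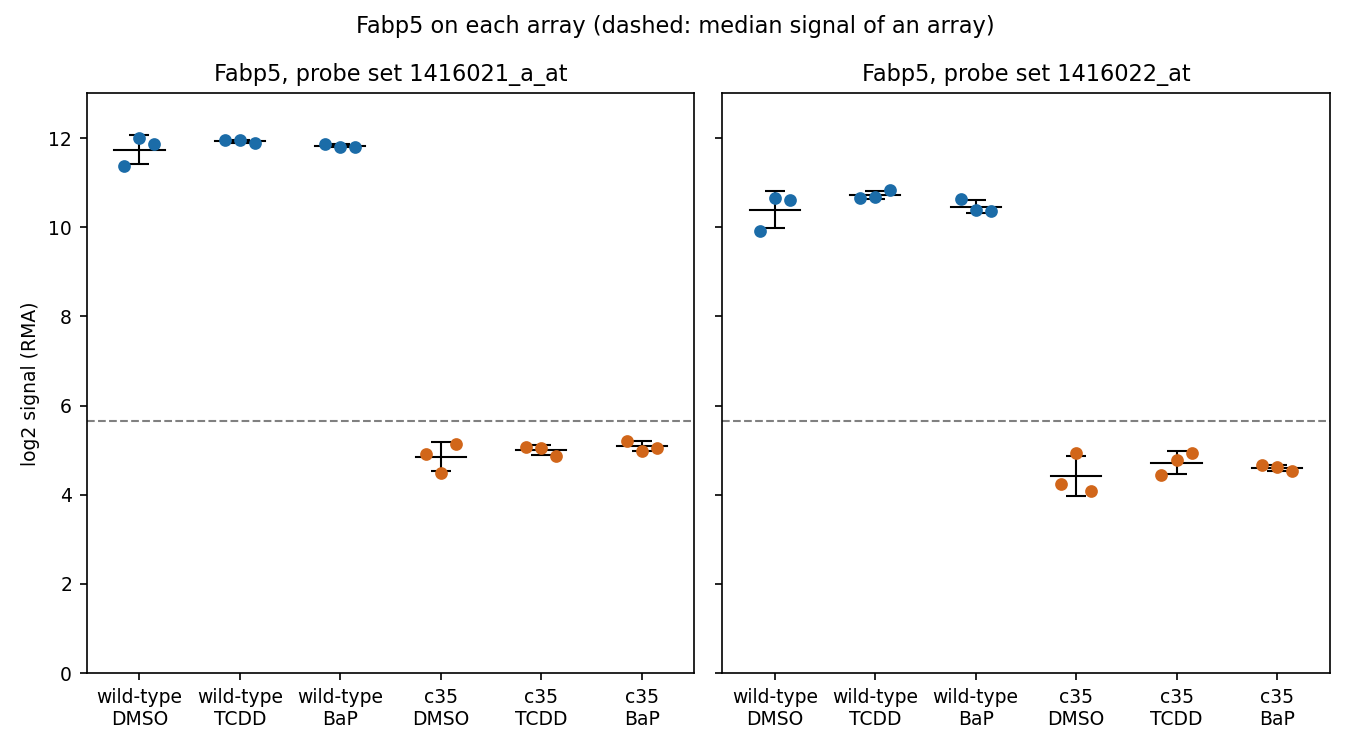
Log2 signal (y axis) of the 2 probe sets of Fabp5 array by array for wild-type (blue) and c35 (orange) cells under DMSO, TCDD and BaP, each point being 1 array and each bar a group mean ± SD (n = 3). The wild-type arrays lie between 11.38 and 11.99 on 1416021_a_at, and the c35 arrays lie between 4.50 and 5.21.

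In naive cells, the contrast by which *Fabp5* was selected, the mean was 11.74 ± 0.32 in wild-type cells (SD, n = 3) and 4.85 ± 0.33 in c35 cells, a difference of 6.89 on the log2 scale or 119-fold. Among differences in either direction this was rank 1 of 45037 probe sets, and 1416022_at, with a difference of 5.97 or 62.5-fold, was rank 7. The values describe the choice of the gene and were not tested. The other 11 probe sets differed between naive lines by -0.38 to 0.39, where *Fabp3* 1416023_at was lowest and *Fabp2* highest.

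The arrays with ligand were not used to choose *Fabp5*, and on them the lines were compared by limma with Benjamini-Hochberg adjustment over all 45037 probe sets. With TCDD, *Fabp5* was higher in wild-type than in c35 cells by 6.93 on the log2 scale at 1416021_a_at (standard error 0.14, 95% interval 6.64 to 7.22, adjusted p = 2.10e-18) and by 6.01 at 1416022_at (standard error 0.19, 95% interval 5.61 to 6.40, adjusted p = 2.56e-15). With BaP the differences were 6.74 (95% interval 6.45 to 7.03, adjusted p = 3.39e-18) and 5.85 (95% interval 5.46 to 6.25, adjusted p = 3.89e-15). The ligand arrays come from the same 2 lines as the naive arrays, so they are a second reading of these lines and not of other ones. Calls between the lines and in wild-type cells took an adjusted p under 0.05 together with more than a 1.5-fold change. With TCDD 3 of the 13 family probe sets were called, all higher in wild-type cells, where 15% of all probe sets were called. With BaP 2 of 13 were called, where 15.6% of all were. With *Fabp5* included, the share of the family called was near that of all probe sets, and the family as a whole did not stand apart. *Fabp5*, selected for its difference between these lines, gave 2 of the calls with each ligand. Outside it, 1 of 11 probe sets was called with TCDD and 0 of 11 with BaP.

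**Figure D2:**
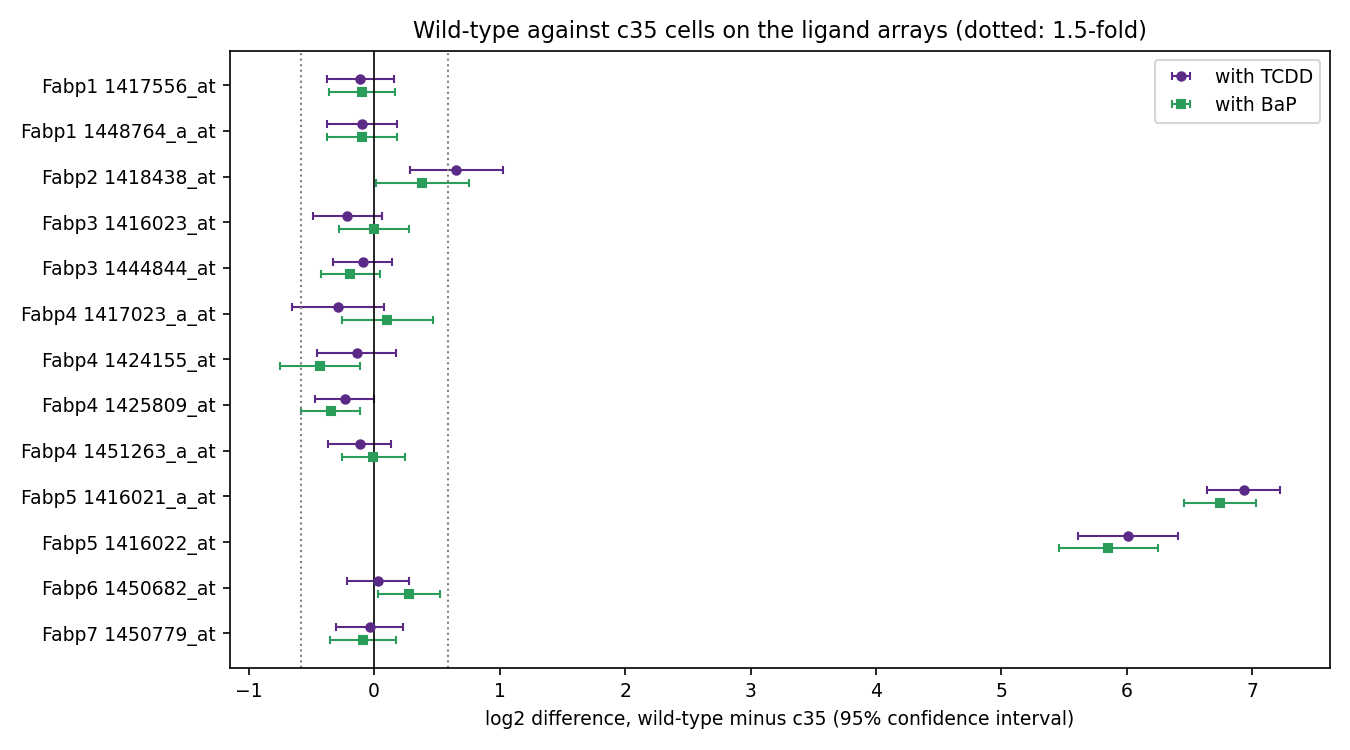
Log2 difference of wild-type minus c35 cells (x axis) for the 13 probe sets of Fabp1 to Fabp7 with TCDD and with BaP, each point being a limma estimate and each bar its 95% confidence interval (n = 3 in a group). The probe sets of Fabp5 lie at 5.85 to 6.93, and the other 11 lie between -0.43 and 0.65.

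The *Actb* controls at the 3′ and 5′ ends of the transcript, whose difference grows with RNA breakdown, moved with the line. The 3′ minus 5′ difference was 1.01 ± 0.32 (SD, n = 3) in wild-type and 0.39 ± 0.05 in c35 cells when naive, and 0.73 to 1.38 over all wild-type arrays against 0.30 to 0.53 over all c35 arrays. With this difference as a covariate, the *Fabp5* difference with TCDD was 7.30 at 1416021_a_at and 6.38 at 1416022_at. The *Actb* ranges of the lines do not overlap, so this fit cannot separate RNA breakdown from the line. The same holds for every line difference given below with the covariate.

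*Fabp2*, which encodes the fatty acid carrier of the intestinal lining, was the other member called between the lines. Its log2 signals on 1418438_at were 4.17, 4.91 and 4.77 in naive wild-type cells and 3.96, 4.34 and 4.38 in naive c35 cells, and these groups overlapped. With TCDD they were 4.93, 4.96 and 5.03 in wild-type cells and 4.09, 4.45 and 4.41 in c35 cells. With BaP they were 5.13, 4.60 and 4.62 in wild-type cells and 4.58, 4.43 and 4.19 in c35 cells. The groups did not overlap with either ligand, and every array lay below the array median. The difference was 0.65 with TCDD (standard error 0.18, 95% interval 0.28 to 1.03, adjusted p = 0.00608 from limma) and 0.38 with BaP (95% interval 0.01 to 0.76, adjusted p = 0.106). The TCDD call was lost without c35 TCDD replicate 1, where the difference was 0.54, below the 1.5-fold minimum. With the *Actb* covariate the TCDD difference was 0.98.

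*Fabp1*, the form of adult hepatocytes, had log2 signals of 3.11 to 3.65 on 1417556_at and 2.49 to 3.06 on 1448764_a_at over the 18 arrays. Both lay below the lower quartile of the array, 4.11 to 4.15, on all 18, in wild-type as in c35 cells. *Alb*, the albumin gene of hepatocytes, ran from 13.41 to 13.84 on the wild-type arrays and from 10.84 to 11.28 on the c35 arrays. The differences of *Fabp1* between the lines were -0.11 and -0.10 with TCDD and -0.10 on each probe set with BaP, with adjusted p of 0.568 to 0.645 from limma. The hepatoma cells thus carried an albumin signal far above the array median and no *Fabp1* signal above the lower quartile. *Alb* does not stand for all hepatocyte genes. Of 10 measured, 4 lay above the array median on all wild-type arrays and 5 on all c35 arrays. The fibrinogen gene *Fga*, for one, ran from 2.37 to 2.91.

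*Fabp3*, the form of heart and skeletal muscle, lay between 4.17 and 4.89 on 1416023_at and between 5.24 and 5.74 on 1444844_at. The latter was the highest signal outside *Fabp5* and lay below the array median on 16 of 18 arrays. *Fabp6*, the ileal bile acid carrier, ran from 2.67 to 3.29, and *Fabp7*, a form of radial glia and astrocytes, from 3.66 to 4.21. None of these was called between the lines. Over the 11 probe sets outside *Fabp5*, 10 lay below the array median on all 18 arrays and 6 lay below the lower quartile on all 18. The signal of each ranged over 0.50 to 1.17 log2 units across the arrays.

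*Fabp4*, the carrier of adipocytes and macrophages, was read by 4 probe sets, which ran from 2.58 to 3.47 on 1417023_a_at, from 2.88 to 3.71 on 1424155_at, from 4.30 to 4.96 on 1425809_at and from 2.19 to 2.74 on 1451263_a_at. With BaP, limma gave a difference between the lines of -0.43 at 1424155_at (95% interval -0.75 to -0.12, adjusted p = 0.0306) and of -0.35 at 1425809_at (95% interval -0.58 to -0.11, adjusted p = 0.0189), both under the 1.5-fold minimum. At the other probe sets it was 0.10 and -0.01 (adjusted p = 0.708 and 0.981). With TCDD all 4 differences were below 0, from -0.29 to -0.11, and none was called. All 4 probe sets were low in both lines.

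**Figure D3:**
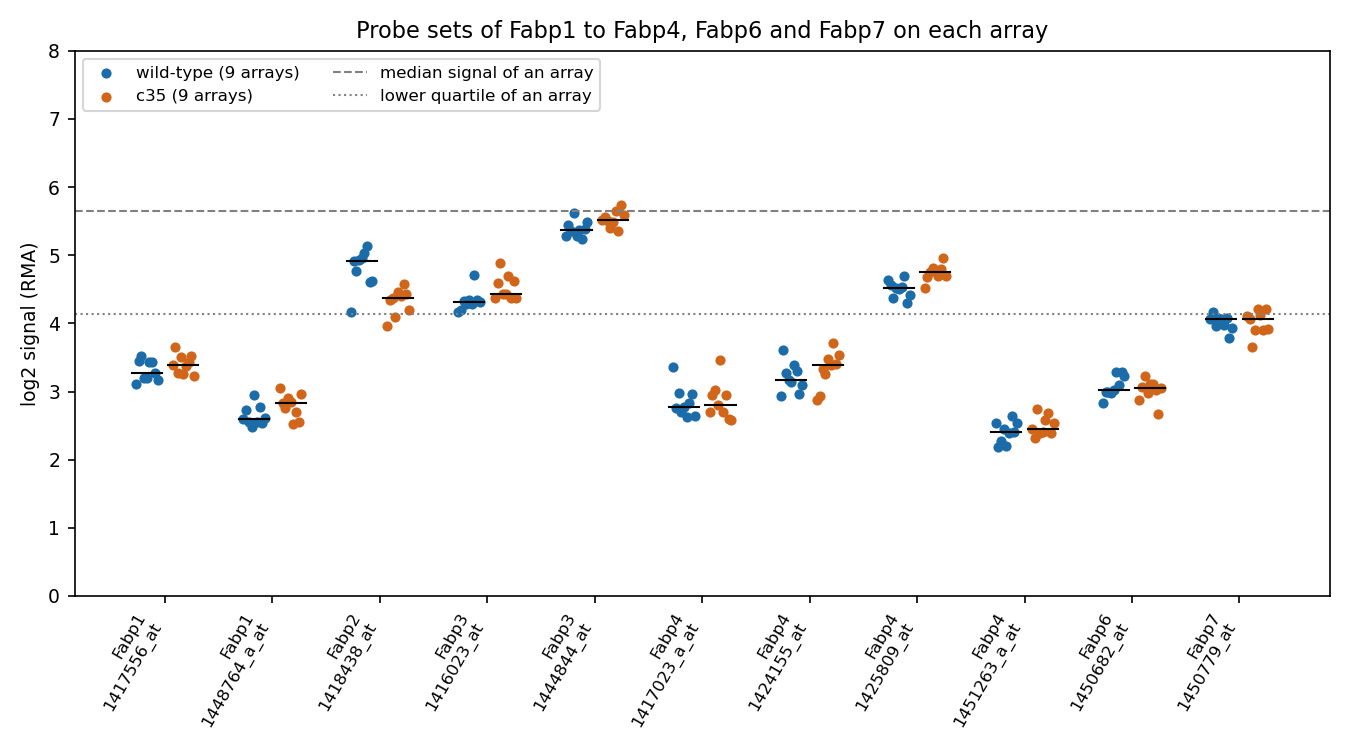
Log2 signal (y axis) of the 11 probe sets of the members other than Fabp5 (x axis) on the 9 arrays of wild-type and the 9 of c35 cells, where points are arrays, short bars are medians, and the dashed and dotted lines are the median and the lower quartile of all probe sets. The points lie between 2.19 and 5.74, and of the 11 probe sets all but Fabp3 1444844_at lie below the dashed line on every array.

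The ligands did not change any family member detectably. Of the 13 probe sets, limma called 0 with TCDD and 0 with BaP in wild-type cells, where 0.3% and 1.33% of all probe sets were called, and 0 between TCDD and BaP, where 0.238% were. In c35 cells, where the call took an adjusted p under 0.1 and any size of change, it called 0 of 13 with either ligand, and 0% of all probe sets with TCDD and 0% with BaP. Before adjustment, the members at p under 0.05 numbered 0 with TCDD, 1 with BaP and 0 between the ligands in wild-type cells, and 1 with TCDD and 1 with BaP in c35 cells. Of all 45037 probe sets, 5620, 7445 and 6118 were under this limit in wild-type cells, and 2244 and 1827 in c35 cells. Both ligands were set against the same 3 DMSO arrays of a line, so their differences are not independent.

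*Fabp5* with TCDD differed from naive wild-type cells by 0.19 at 1416021_a_at (95% interval -0.10 to 0.48, adjusted p = 0.633 from limma) and by 0.33 at 1416022_at (95% interval -0.06 to 0.73, adjusted p = 0.503). With BaP the differences were 0.08 (95% interval -0.20 to 0.37) and 0.07 (95% interval -0.33 to 0.46). TCDD minus BaP was 0.10 and 0.26 (adjusted p = 0.828 and 0.607). The DMSO arrays in these differences, and in those of c35 cells and of the responses given next, are the ones on which *Fabp5* was selected, so the ligand differences of *Fabp5* are not independent of that choice. Wild-type DMSO replicate 1 was the lowest wild-type array on both probe sets and had the widest *Actb* 3′ minus 5′ difference, 1.38. Without it, *Fabp5* with TCDD differed from DMSO by 0.01 and 0.09, and with BaP by -0.10 and -0.17. The TCDD differences were 0.31 and 0.46 without wild-type DMSO replicate 2, and 0.24 and 0.44 without wild-type DMSO replicate 3. With BaP they were 0.21 and 0.20 without replicate 2 and 0.14 and 0.18 without replicate 3. None of these was called, and the estimates moved with each DMSO array left out.

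In c35 cells *Fabp5* with TCDD differed from DMSO by 0.15 and 0.29, and with BaP by 0.23 and 0.18, with adjusted p from limma of 0.963 to 0.9998. The low *Fabp5* signal of c35 cells was thus at 4.09 to 5.21 with and without ligand. The response in wild-type minus that in c35 cells was 0.04 on both probe sets with TCDD (adjusted p = 0.986 and 0.988) and -0.15 and -0.11 with BaP (adjusted p = 0.848 and 0.926). Of the 13 probe sets, 0 were called in this comparison with TCDD and 0 with BaP, where 0.175% and 1.04% of all were called. Before adjustment, 0 members with TCDD and 2 with BaP had p under 0.05, where 3114 and 5471 of all 45037 probe sets had.

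The members with the lowest p under a ligand were low probe sets. *Fabp4* 1424155_at in c35 cells was 2.88, 2.94 and 3.34 with DMSO and 3.71, 3.41 and 3.53 with BaP, with no overlap, a difference of 0.50 (95% interval 0.18 to 0.82) and an adjusted p = 0.9998 from limma. With TCDD it was 3.26, 3.47 and 3.39, a difference of 0.32 (adjusted p = 0.962). Its BaP response in wild-type minus c35 cells was -0.65 (adjusted p = 0.165), and passed the threshold without wild-type DMSO replicate 1, at -0.82 (adjusted p = 0.0350). *Fabp6* with BaP in wild-type cells differed by 0.26 (95% interval 0.01 to 0.51, adjusted p = 0.274). For the 11 probe sets outside *Fabp5* the ligand differences ran from -0.33 to 0.36 with TCDD and from -0.21 to 0.26 with BaP in wild-type cells, and from -0.12 to 0.32 and from -0.18 to 0.50 in c35 cells.

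**Figure D4:**
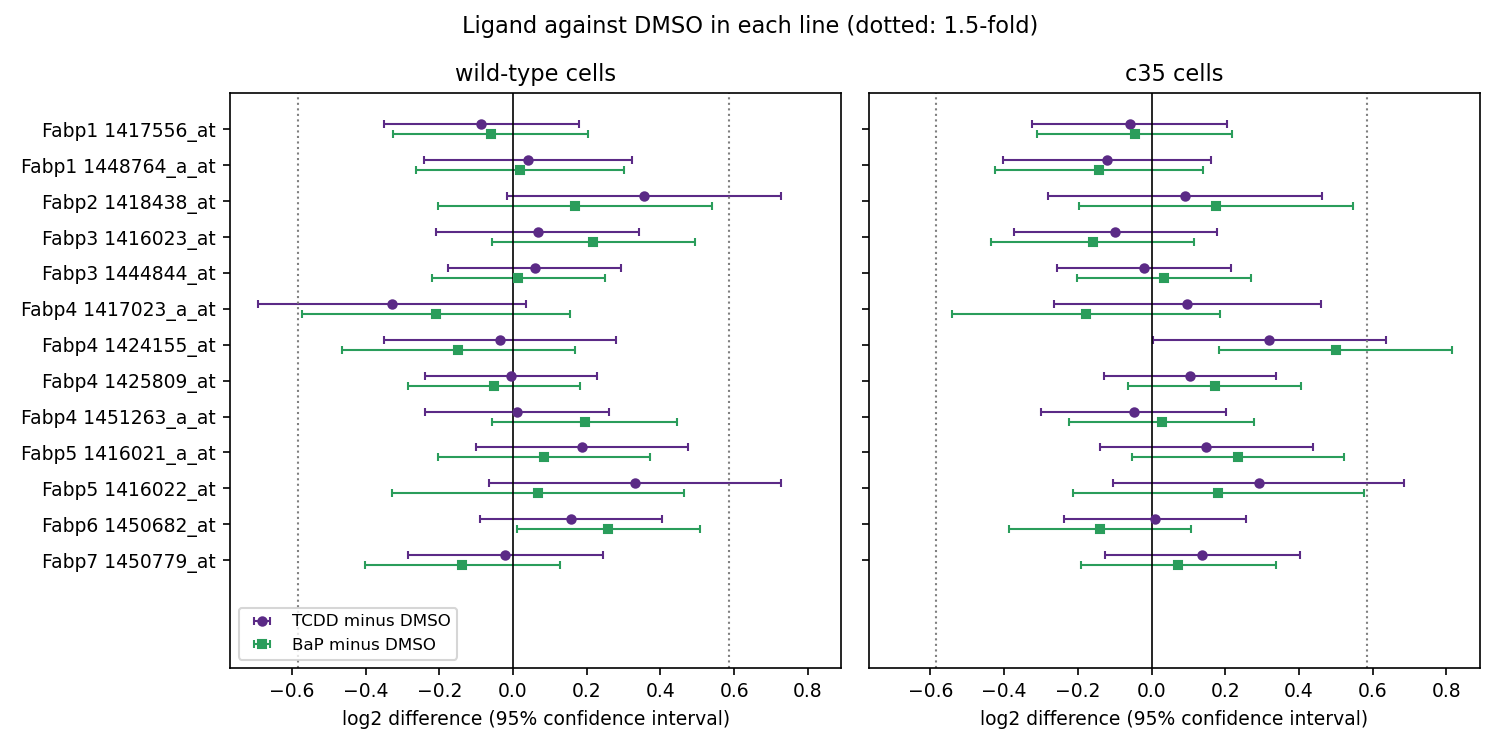
Log2 difference of TCDD or BaP minus DMSO (x axis) for the 13 probe sets of Fabp1 to Fabp7 in wild-type cells (left) and c35 cells (right), each point being a limma estimate and each bar its 95% confidence interval (n = 3 in a group). All estimates lie between the dotted lines at 1.5-fold, from -0.33 to 0.36 in wild-type and from -0.18 to 0.50 in c35 cells.

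Over the 18 arrays, the genes whose profile lay nearest to that of *Fabp5*, each centred on its own mean, were *Slc16a12*, *Abcg2*, *Cyp7b1*, *Slc2a3* and *Malat1*, with root mean square differences of 0.73, 0.75, 0.81, 0.84 and 0.87 log2 units among 18192 genes. *Slc16a12* encodes a transporter of the monocarboxylate family, *Abcg2* a drug efflux pump, *Cyp7b1* an oxysterol hydroxylase of the alternative bile acid pathway and *Slc2a3* a glucose transporter, and *Malat1* is a long noncoding RNA of the nucleus. Their mean differences between the lines, over 9 arrays each, were 5.61, 5.44, 5.39, 5.25 and 5.25, against 6.86 for *Fabp5*. *Slc16a12* lay between 8.89 and 9.44 on the wild-type arrays and between 2.70 and 4.07 on the c35 arrays, and *Abcg2* between 9.89 and 10.31 and between 4.26 and 4.94. At the probe set with the highest mean, all 5 genes were thus high in wild-type and low in c35 cells with no overlap. On *Slc2a3* 1421924_at and 1427770_a_at and *Cyp7b1* 1446995_at the lines overlapped, at signals below the array median. The rest of their probe sets separated the lines. They were picked for this likeness, which is a description and was not tested.

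*Fabp5* and *Fabp4* lie in a cluster of family genes on mouse chromosome 3, with *Pmp2*, *Fabp9* and *Fabp12* between and beside them. Of 15 measured genes of this neighbourhood, 3 were called higher and 0 called lower in wild-type cells with TCDD, and 2 higher and 0 lower with BaP. Over all 18193 genes 8.65% were higher and 6.32% lower with TCDD, and 8.98% and 6.83% with BaP. The called neighbours, by the probe set with the highest signal, were *Zfp704*, a zinc finger gene (1.02 with TCDD, 0.93 with BaP), *Snx16*, a sorting nexin gene (0.85 with each), and *Impa1*, an inositol monophosphatase gene (0.70 with TCDD, and 0.57, below the minimum, with BaP, where its probe set 1436848_x_at gave 0.93). *Pmp2*, the myelin form, lay between 4.51 and 4.89, *Fabp9*, the testis form, between 4.23 and 4.55 and *Fabp12* between 5.19 and 5.74 over all arrays. None of these 3, which flank *Fabp5* or *Fabp4*, was called.

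*Pag1*, a membrane adaptor gene on the other side of *Fabp5*, has 4 probe sets that did not read alike, and 1436570_at was singled out after its values were seen. On 1423002_at, the probe set with the highest mean, the lines differed by -0.11 with TCDD and -0.17 with BaP. On 1436570_at the wild-type arrays ran from 6.25 to 6.94 and the c35 arrays from 3.55 to 4.44, with differences of 2.70 (adjusted p = 2.38e-12 from limma) and 2.23 (adjusted p = 3.89e-11). The median difference of the neighbourhood was 0.15 with TCDD and 0.09 with BaP, against -0.03 for all genes with each.

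Of 7 measured relatives of the family, the cellular retinoid carriers, *Pmp2*, *Fabp9* and *Fabp12*, 0 were higher and 1 was lower in wild-type cells with each ligand. This was *Rbp2*, a retinol carrier of the intestine. Its log2 signals were 6.07, 5.67 and 6.16 in wild-type and 8.10, 8.43 and 8.65 in c35 cells with TCDD, and 6.20, 6.16 and 6.08 and 8.44, 8.47 and 8.59 with BaP. It was lower in wild-type cells, where the log2 difference was -2.42 with TCDD (adjusted p = 1.61e-09 from limma) and -2.36 with BaP (adjusted p = 2.30e-09). *Rbp2* and *Fabp5* thus ran in opposite directions between the lines. The median difference of the relatives was -0.08 with TCDD and -0.09 with BaP. Of all genes, 15% were called with TCDD and 15.8% with BaP.

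Genes of fatty acid uptake and activation supply the ligands that the family carries. Of 16 measured, 3 were called higher and 1 called lower in wild-type cells with TCDD, and 3 and 1 with BaP, with medians of -0.11 and -0.14. This is 25% of the list with each ligand, where 15% and 15.8% of all genes were called. *Vldlr*, a receptor for triglyceride-rich lipoproteins, was 8.40, 8.51 and 8.40 in wild-type and 5.61, 5.63 and 5.62 in c35 cells with TCDD. It was higher by 2.81 with TCDD (adjusted p = 2.53e-14 from limma) and 3.04 with BaP (adjusted p = 8.34e-15). *Cd36*, the fatty acid translocase gene, was higher by 0.79 and 0.72 on 1450883_a_at, at signals of 2.65 to 3.91, below the lower quartile. With each ligand its probe set 1423166_at also lay higher on all wild-type arrays, and on 1450884_at the lines overlapped. *Acsbg1*, an acyl-CoA synthetase gene, was lower, with log2 differences of -1.63 and -1.41. With the *Actb* covariate 7 of the 16 were called with TCDD, 4 higher and 3 lower, where 16.2% of all genes were called in that fit. The calls gained were *Slc27a1* (-0.65) and *Slc27a4* (-0.78), which encode fatty acid transport proteins, and *Dbi* (0.67), which encodes the acyl-CoA binding protein. Without the covariate these differences were -0.56, -0.57 and -0.10. *Dbi* thus changed sign with the covariate, and no direction between the lines can be given for it.

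Among 17 measured lipid-sensing nuclear receptors and their coactivators, 3 were called higher and 3 called lower in wild-type cells with each ligand, with medians of -0.02 and -0.10. This is 35.3% of the list with each ligand, where 15% and 15.8% of all genes were called, and the excess was not tested. *Ppargc1a*, which encodes the coactivator PGC-1α, was 7.61, 7.69 and 7.56 in wild-type and 4.13, 4.17 and 3.87 in c35 cells with TCDD. It was higher by 3.56 with TCDD (adjusted p = 3.38e-14 from limma) and 3.00 with BaP (adjusted p = 4.86e-13), and its 5 probe sets were all called higher. *Nr1h4*, the bile acid receptor gene, was lower in both comparisons (-0.79 and -0.80), as were *Nr1h3*, an oxysterol receptor gene (-0.76 and -0.67), and *Rara*, a retinoic acid receptor gene (-0.75 and -0.83). With the *Actb* covariate the call of *Nr1h3* with BaP was lost (-0.57), as was that of *Rara* with TCDD (-0.54, adjusted p = 0.0523 from limma). *Rxrb*, a retinoid X receptor gene called higher in wild-type cells, lost its call with both ligands (0.46 and 0.55). In that fit 4 of the 17 were called with each ligand, where 16.2% and 16.4% of all genes were. *Ppara*, the partner of FABP1, and *Pparg*, the partner of FABP4, lay between 3.59 and 4.27 and between 3.94 and 4.56 over all arrays, below the array median.

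*Ppard*, which encodes the PPARδ to which FABP5 passes ligands, rose with both AHR ligands in wild-type cells. On 1439797_at its log2 signals were 7.23, 7.20 and 7.20 with DMSO, 7.98, 8.03 and 7.88 with TCDD and 8.21, 7.93 and 8.03 with BaP. In c35 cells they were 7.42, 7.43 and 7.35 with DMSO, 7.08, 7.23 and 7.37 with TCDD and 7.22, 7.23 and 7.43 with BaP. The wild-type ligand arrays lay above all other arrays. The rise was 0.75 with TCDD (limma, standard error 0.09, adjusted p = 9.12e-05) and 0.85 with BaP (adjusted p = 4.51e-06). Its other probe set, 1425703_at, at signals of 4.80 to 5.28, was not called (0.23, adjusted p = 0.383 with TCDD and 0.03, adjusted p = 0.944 with BaP). The gene thus changed with ligand where *Fabp5* was not called, on 1 of its 2 probe sets.

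Of 22 measured target genes of the PPARs, 2 were called higher and 2 called lower in wild-type cells with TCDD, and 2 and 1 with BaP, with medians of 0.05 and -0.04. The share called was 18.2% with TCDD and 13.6% with BaP, near the 15% and 15.8% of all genes. *Vnn1*, a pantetheinase gene, was 8.99, 8.78 and 8.83 with TCDD and 9.16, 9.11 and 9.17 with BaP in wild-type cells, and 5.24, 5.00 and 4.75 and 4.93, 4.38 and 4.62 in c35 cells. It was higher in wild-type cells by 3.87 and 4.50 (adjusted p = 3.04e-15 and 2.56e-16 from limma). It also rose with ligand in wild-type cells, from 8.20, 8.10 and 8.18 with DMSO, by 0.71 with TCDD (adjusted p = 0.00575) and 0.99 with BaP (adjusted p = 4.14e-05). *Pdk4*, which encodes a kinase that restrains pyruvate oxidation, was higher in wild-type cells by 1.76 and 1.57. *Cpt1a*, the gate of fatty acids into mitochondria, was lower, with log2 differences of -0.97 and -0.95.

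**Figure D5:**
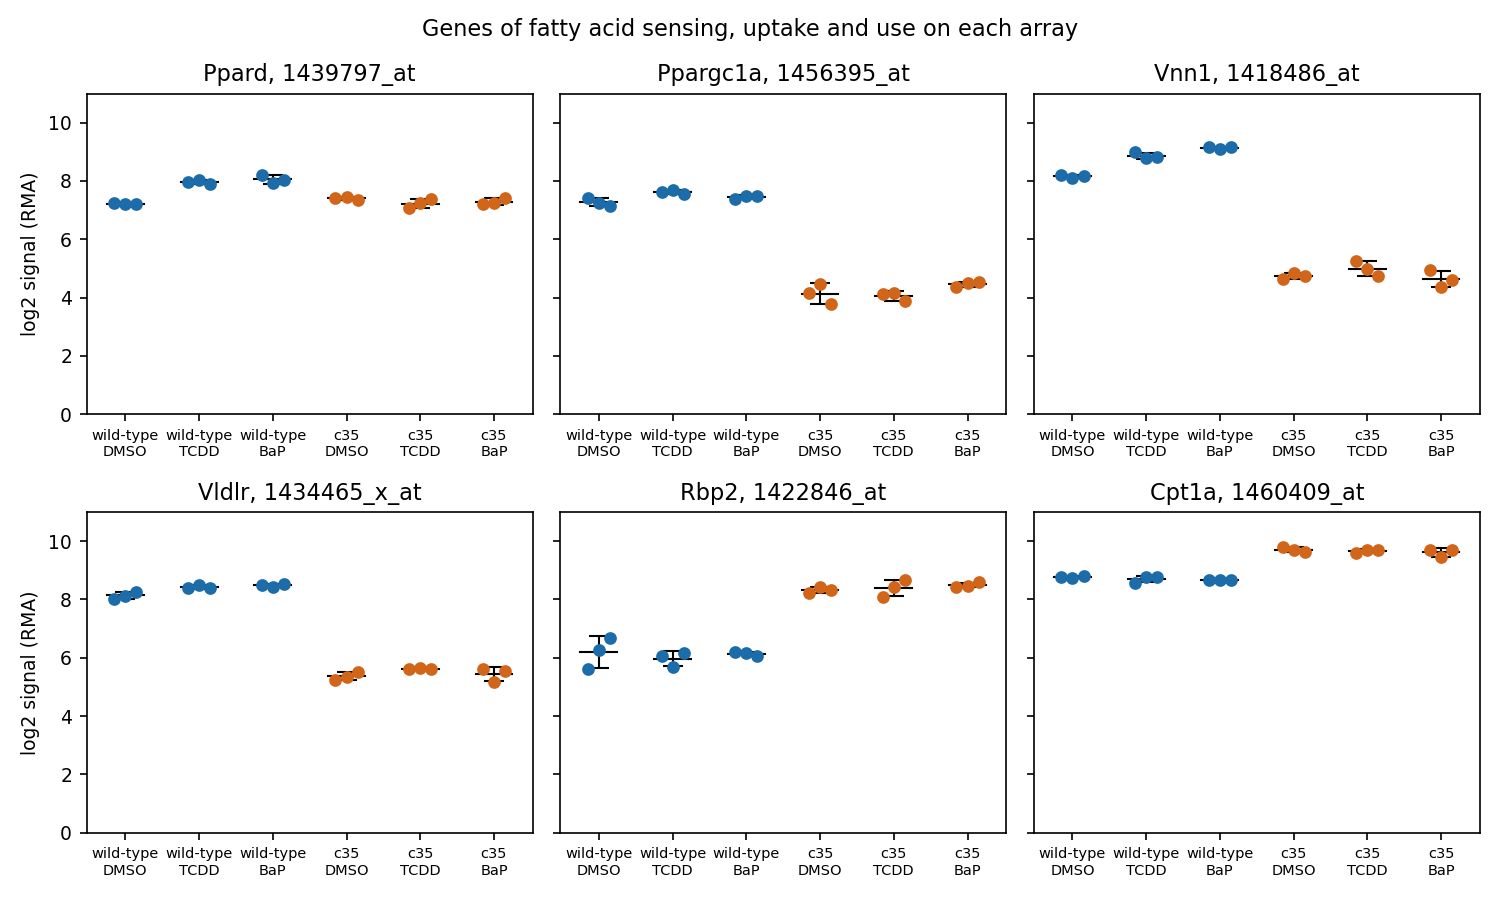
Log2 signal (y axis) of Ppard, Ppargc1a, Vnn1, Vldlr, Rbp2 and Cpt1a array by array for wild-type (blue) and c35 (orange) cells under DMSO, TCDD and BaP, by the probe set with the highest mean, each point being 1 array and each bar a group mean ± SD (n = 3). Ppard is at 7.88 to 8.21 on the wild-type ligand arrays and at 7.08 to 7.43 on all others, and Rbp2 and Cpt1a are higher in c35 cells.

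Of 18 measured genes of lipid droplets and lipolysis, 1 was called higher and 2 called lower in wild-type cells with TCDD, and 2 and 2 with BaP, with medians of -0.06 and -0.11. For this list and the next, the share of all genes called was 15% with TCDD and 15.8% with BaP. *Lipa*, the lysosomal acid lipase gene, was higher by 1.17 and 1.35. *Pnpla2*, the adipose triglyceride lipase gene, was lower on 1428143_a_at, with a log2 difference of -0.88 with each ligand, and differed by -0.08 and 0.04 on its other probe set (adjusted p = 0.619 and 0.825 from limma). The probe sets of *Abhd5*, which encodes its activator, were called in opposite directions, so that no direction can be given for the gene. On 1417566_at, which has the highest mean and entered the count as lower, the differences were -0.90 and -0.89, and on 1417565_at they were 1.03 (adjusted p = 4.94e-07) and 0.70 (adjusted p = 6.76e-05). Of 19 genes of bile acid transport and sensing, the field of FABP6, 1 was higher and 2 lower with TCDD, and 2 and 2 with BaP, with medians of 0.01 and -0.01. *Abcc3*, a bile salt export gene, was lower (-0.85 and -0.77) and *Cyp27a1*, a sterol hydroxylase gene, higher (0.60 and 1.01). The TCDD call of *Cyp27a1* was lost with the *Actb* covariate (0.43), with median centring (0.57) and without wild-type TCDD replicate 1 (0.58), and its other probe set gave -0.03 and 0.12. In wild-type cells BaP also raised *Abcc4*, another export gene of this list, by 0.68 (adjusted p = 1.86e-06 from limma) and lowered *Ppargc1b*, a coactivator gene, by a log2 difference of -0.70 (adjusted p = 0.000807).

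The lists of cell type markers were checked for tissues that the family members mark. Beside their counts, 15% of all genes were called with TCDD and 15.8% with BaP. Of 10 measured hepatocyte genes 2 were called higher and 1 called lower in wild-type cells with each ligand, *Alb* by 2.24 and 2.43, *Apoa2* by 0.68 and 0.67 and *Fgb* by -1.14 and -1.01. The log2 of their summed linear signals was 13.98 to 14.19 on the wild-type arrays and 12.65 to 12.80 on the c35 arrays. Such a sum mostly reflects the genes of highest signal and not the whole list. Here these are *Alb* and *Afp*, the latter at 11.80 to 12.35 over all arrays. The sums below are of the same kind, with *Csf1r* highest among macrophage genes and *Dcn* among fibroblast genes. Of 7 macrophage genes 0 were higher and 3 lower with TCDD and 0 and 2 with BaP, at sums of 11.34 to 11.60 and 12.48 to 12.62. Of 6 keratinocyte genes, which share a tissue with FABP5, 1 was higher and 1 lower with TCDD and 0 and 1 with BaP, at sums of 7.94 to 8.66 in wild-type and 8.89 to 9.13 in c35 cells. The keratin gene of the basal epidermis, *Krt14*, was lower in wild-type cells (-2.61 and -2.22), and that of the upper epidermis, *Krt10*, was higher with TCDD (0.64), with a difference of 0.47 with BaP that was below the minimum. Of 5 adipocyte, 6 endothelial and 6 cardiac muscle genes 0 were called. For adipocyte genes the sum was 7.21 to 7.42 in wild-type and 7.40 to 7.61 in c35 cells, for endothelial genes 7.20 to 7.48 and 7.27 to 7.50, and for cardiac genes 8.23 to 8.42 and 8.15 to 8.37. Of 6 enterocyte genes 1 was higher with each ligand, at sums of 7.95 to 8.19 and 7.73 to 7.98, and of 6 glial genes 1, at sums of 8.87 to 9.44 and 7.96 to 8.33. Of 7 fibroblast genes 2 were higher and 1 lower with TCDD and 3 and 1 with BaP, at sums of 14.37 to 14.75 and 14.41 to 14.58. The part of these markers in the *Fabp5* difference was not tested.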

How the data were processed

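The authors deposited log2 signals, made per the submitters' processing notes by robust multiarray averaging (RMA, version not given in the sources used here), a background correction, a normalization across arrays and a summary per probe set. The log2 values were used as deposited. Testing covered 45037 of the 45101 probe sets, the 64 controls being set aside. Of these, 34945 carried a single gene symbol in the platform annotation, 932 carried several and 9160 carried none. The lowest correlation between replicates was 0.993, no arrays held identical values, and the number of arrays limits the precision. In R 4.3.3 with data.table version 1.17.8, limma 3.58.1 estimated 6 group means from the 18 arrays together, with eBayes and a trend on intensity, and p-values were adjusted by Benjamini-Hochberg within each comparison. The fit was tested on simulated data. Genes outside the family are represented by their probe set of highest mean signal.

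The members and the 16 lists (192 entries, 173 measured) were chosen with earlier results of these data known. Every member was named, and from each list up to 3 called genes of largest change between the lines on the ligand arrays, and the 5 genes nearest to *Fabp5*. List genes called under a ligand were named after their values were seen. The alternatives were array weights, robust eBayes, no trend on intensity, centring on the median, quantile normalization, a filter on probe sets below the median, a fit of only the arrays compared, the replicate block, the *Actb* covariate, no minimum change, averaging the probe sets of each gene, and each array left out in turn. Promoters and figures were handled in Python 3.11.15 with pandas 2.3.3 and matplotlib 3.10.9. Protein sequences and the promoters of *Fabp4* and *Fabp5* were not used here.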

Additional observations from a re-analysis of the deposited data

Results flagged for a closer look

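None of the 13 family probe sets differed in its ligand response between the lines by the tested difference of responses. Among the genes of their pathway that are named above, 4 did, at the probe set with the highest mean. Of all probe sets, 0.175% were called in this comparison with TCDD and 1.04% with BaP. *Ppard*, *Abcc4* and *Ppargc1b* were named for a call under a ligand in wild-type cells. The same arrays enter the difference of responses, so their calls here are not independent of that choice. The response of *Ppard* in wild-type minus that in c35 cells was 0.93 with TCDD (adjusted p = 0.000847 from limma) and 0.96 with BaP (adjusted p = 0.000200), and each stayed called under all 28 alternatives. That of *Vnn1* was 1.08 with BaP (adjusted p = 0.00184) and 0.44 with TCDD (adjusted p = 0.602), where its second probe set, 1447845_s_at, gave 0.98 (adjusted p = 0.00250). With BaP it was 0.90 for *Abcc4* (adjusted p = 1.86e-05) and -0.84 for *Ppargc1b* (adjusted p = 0.00905).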

How the results depend on the processing

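Over 28 settings, 18 of them without 1 array, the difference of *Fabp5* between the lines kept its direction and its call, from 6.87 to 7.30 with TCDD and from 6.69 to 7.09 with BaP at 1416021_a_at, and from 5.87 to 6.38 and 5.77 to 6.20 at 1416022_at. Replicate numbers are balanced over the groups, so the replicate block cannot change a difference, which stayed at 6.93 with TCDD and 6.74 with BaP. It can change the standard error, and it changed no call of a member. No trend, robust eBayes, no minimum change, only the arrays compared and an array left out from outside the comparison also keep each difference. In those settings its direction was fixed beforehand. Replicate numbers did not pair the arrays, whose deviations correlated between groups at -0.26 to 0.22. The naive difference at 1416021_a_at was 7.25 with the *Actb* covariate. Of 3151 values of family probe sets under the alternatives, 3023 kept their direction and side of the threshold, 1 lost a call, 5 gained one, 122 uncalled values changed sign and 0 called values did. With no minimum change 4 family probe sets, of *Fabp5* and *Fabp4*, were called between the lines with BaP. For the BaP response in wild-type minus c35 cells 1 family probe set was called with array weights, *Fabp4* 1424155_at (-0.81, adjusted p = 0.0109 from limma), and 0 to 1 without single arrays. *Fabp6* gained a call between the lines with BaP under the *Actb* covariate, at 0.64 (adjusted p = 0.00414). Under it 2 of the 7 relatives were called with each ligand, against 1, where *Crabp2* was gained. Of all genes, 16.2% were called in that fit with TCDD and 16.4% with BaP. Of the 15 chromosome 3 neighbours 4 were called with TCDD, against 3, where *Mrps28* was gained (0.72). The calls of *Plin5*, a listed PPAR target, with TCDD (-0.48) and of *Mttp*, of the lipid droplet list, with BaP (0.58) were lost. Leaving out probe sets below the median left only those of *Fabp5*, and the other 11 have no value there. Of 1424 values of 22 pathway genes named by the rule or for a call under a ligand, 5 lost a call. Of these, 4 were under the *Actb* covariate or median centring, and 0 of the 1424 changed sign. Genes named only for a call that the *Actb* covariate changed are not among the 22. The number of all probe sets called with TCDD in wild-type cells was 135, and 76 with only the arrays compared, 325 with no minimum change and 331 without wild-type DMSO replicate 2. With no minimum change 15631 and 16033 were called between the lines, 2276 with BaP, 557 between the ligands and 748 for the difference of BaP responses. For the difference of TCDD responses 159 were called with array weights and 127 without c35 DMSO replicate 3. In c35 cells 4 were called with TCDD with array weights, and 2 with TCDD and 5 with BaP without c35 DMSO replicate 3. The cause was not tested in these cases. Signal over background limits what can be said of the 11 low probe sets and of *Fabp5* in c35 cells.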
